A study of Mus musculus with 3 samples.

Results

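The SOCS family and 2 further inhibitors of cytokine signalling were measured in activated CD4+ T cells labelled wild type, Dll1-/- or Rbpj-/-. Dll1 is a Notch ligand and Rbpj the nuclear effector of Notch signals. The genes were chosen by name: Socs1 to Socs7, Cish, Pias1 and Ptpn2. A probe belonged to a gene when its RefSeq accession mapped to that symbol, which gave 17 probes for 10 genes, out of 27507 named probes for 20886 genes. Of the 10 genes, 9 had a probe well above background on all 3 arrays and Socs6 had none, so counts below are over 9 genes.

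Female C57BL/6 mice of 8 weeks supplied the CD4+ T cells, which were stimulated and collected at 2 days. One sample was wild type (WT), one was Dll1-/- (here Dll1 KO) and one was Rbpj-/- (here Rbpj KO), each hybridised to 1 array with the same Cy3 label. The sources used here do not give which cells carried each deletion, the stimulus, or how many mice made up a sample. The title places the study in survival signalling through Delta-like 1 on helper T cells. Since each genotype has 1 array, differences are described by size alone, without p-values. All 3 comparisons draw on the same 3 arrays, so each pair of them shares an array.

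SOCS proteins work as a feedback brake on cytokine receptors. A cytokine activates JAK kinases on its receptor, these phosphorylate STAT transcription factors, and the STATs switch on several SOCS genes. The SOCS protein then binds the receptor or kinase through its SH2 domain and, through its SOCS box, recruits an elongin and cullin ubiquitin ligase. In T cells Socs1 restrains interferon and common gamma chain cytokine signals, Cish is a well-known STAT5 target induced by IL-2, and Socs3 binds gp130-type receptors. Pias1 and Ptpn2 are not SOCS proteins: Pias1 is a SUMO ligase that restrains STAT proteins, and Ptpn2 is a phosphatase that removes phosphate from JAK and STAT proteins.

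The promoters of Socs1, Cish and Socs3 are printed because these SOCS genes had the lowest Rbpj KO values relative to WT. Each is the 250 bases before the RefSeq start on GRCm38.p6, read 5′ to 3′ on the gene's strand. Promoter entries were matched for 5 of the 10 genes (also Socs4 and Pias1). Capitals mark the STAT motif TTCNNNGAA, which reads the same on both strands, and the Rbpj motif TGGGAA, searched on both strands.
Socs1, chr16:10785537-10785786, minus strand: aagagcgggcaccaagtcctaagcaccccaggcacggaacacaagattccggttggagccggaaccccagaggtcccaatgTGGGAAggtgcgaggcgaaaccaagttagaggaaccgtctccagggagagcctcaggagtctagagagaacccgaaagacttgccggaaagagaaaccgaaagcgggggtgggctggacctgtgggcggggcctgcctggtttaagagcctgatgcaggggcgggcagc
Cish, chr9:107296409-107296658, plus strand: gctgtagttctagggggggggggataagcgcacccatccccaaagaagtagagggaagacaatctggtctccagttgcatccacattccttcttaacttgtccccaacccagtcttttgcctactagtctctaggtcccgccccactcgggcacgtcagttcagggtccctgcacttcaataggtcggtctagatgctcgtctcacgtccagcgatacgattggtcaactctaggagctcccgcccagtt
Socs3, chr11:117969367-117969616, minus strand: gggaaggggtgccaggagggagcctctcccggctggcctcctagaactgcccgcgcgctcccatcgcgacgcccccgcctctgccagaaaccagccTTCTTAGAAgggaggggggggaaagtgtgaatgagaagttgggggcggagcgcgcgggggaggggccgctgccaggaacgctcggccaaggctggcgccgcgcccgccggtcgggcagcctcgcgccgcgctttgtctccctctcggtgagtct
The Socs1 window held 1 Rbpj motif, which lies 169 bases before the gene's start, and the Socs3 window held 1 STAT motif, which lies 154 bases before it. The Cish, Socs4 and Pias1 windows held neither. No STAT and Rbpj motif overlapped in these windows. Of 32851 promoters of this length, 7.02% held the STAT motif and 21.6% the Rbpj motif, so these matches describe the letters and show no binding.

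A level is the log2 processed signal relative to the 75th percentile of its array, so it serves to compare 1 probe across arrays, not different probes. The error beside a level or a difference is Feature Extraction's own error of the spot, carried through to the difference. It covers measurement on 1 array and no variation between mice. For a gene with several probes their errors are combined as if independent, so its smaller error leaves out what probes of 1 array share. The share of probes well above background was 46.6% for WT, 50.1% for Dll1 KO and 47.3% for Rbpj KO. The median gene differed from WT by -0.03 (Dll1 KO) and -0.07 (Rbpj KO). Scaling instead to E1A spike-in spots, which read control RNA added to each sample, shifted every difference from WT by -0.17 for Dll1 KO and -0.59 for Rbpj KO, and the direction of a smaller difference then depends on the scaling. Probes at least 2-fold apart between Dll1 KO and WT were 1.77% among the low-numbered rows of the array and 0.305% among the high-numbered ones, split at the middle row. For Rbpj KO against WT they were 4.39% and 2.97%, so the rows of the main probes are given.

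The targeted genes and cell markers were read first. Rbpj, by 2 probes, gave -0.35 and -0.66 for Rbpj KO minus WT against 0.33 and 0.24 for Dll1 KO minus WT. No array had its Dll1 probe well above background. Both Rbpj probes were well above background on the Rbpj KO array too. The position of these probes relative to the deleted sequence is unstated, so they check neither label, and Rbpj KO and Dll1 KO are used as the names of the labelled samples. All 7 CD4 T cell markers were well above background on every array, with a summed signal of 606 to 656 times the 75th percentile. For other cell types the summed signals in WT, Dll1 KO and Rbpj KO were 20.8, 20.7 and 14.2 for B cell markers (3, 5 and 4 of 5 well above background), and 2.99, 3.11 and 1.69 for NK cell markers (2, 3 and 3 of 5). They were 1.36, 1.34 and 0.823 for CD8 T cell markers (2 of 2 on each array), 1.74, 1.93 and 2.02 for macrophage markers (1, 2 and 1 of 5 named) and 1.38, 0.776 and 2.19 for neutrophil markers (3 of 3 named). Of 4 dendritic cell markers only Siglech was above background, with a summed signal of 269, 299 and 306. That sum averages all Siglech probes, above background or not. Those above background stood at log2 levels of 9.07, 9.22 and 9.26, which exceed the sum on the linear scale. The Siglech probes thus disagreed, and the sum gives no measure of dendritic cells. Ncr1 of NK cells, Adgre1 and Cd14 of macrophages, and Itgax and Xcr1 of dendritic cells had no probe well above background. The B cell, NK cell and CD8 T cell sums were thus lowest on the Rbpj KO array, and their part in the results below was not tested. In these bulk samples fewer cells of a type and less RNA per cell cannot be told apart.

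The Rbpj KO had lower signals of the cytokine-induced brakes Socs1 and Cish and, except under spike-in scaling, higher signals of Socs2 and Socs4. Most of the family lay close to WT in the Dll1 KO. Socs1, which blocks JAK kinases directly, stood at 5.70 (WT), 5.59 (Dll1 KO) and 4.49 (Rbpj KO). The 2 former levels differed by less than the error of a single spot, and the Rbpj KO lay well below both. The Rbpj KO was 2.32-fold lower than WT (log2 difference -1.21 ± 0.20) and 2.15-fold lower than the Dll1 KO (-1.11 ± 0.20), against -0.11 ± 0.20 for Dll1 KO minus WT. The Socs1 probe lies in row 289, among the high-numbered rows. Only 139 of 11578 genes (1.20%) had a lower difference than Socs1 between Rbpj KO and WT. After normexp correction with quantile normalization the difference was -0.93, just under 2-fold.

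Cish, the founding member of the family, stood at 4.16 (WT), 4.43 (Dll1 KO) and 3.32 (Rbpj KO). The Rbpj KO was lowest, and unlike Socs1 the Dll1 KO was the highest of the 3. Against WT the Rbpj KO was 1.78-fold lower (-0.83 ± 0.20), and the Dll1 KO was at 0.28 ± 0.20. The distance between the knockouts was 2.16-fold (-1.11 ± 0.20). The probe lies in row 279, and 380 genes (3.28%) had a lower difference between Rbpj KO and WT. After normexp with quantile normalization that difference was -0.58.

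**Figure D1:**
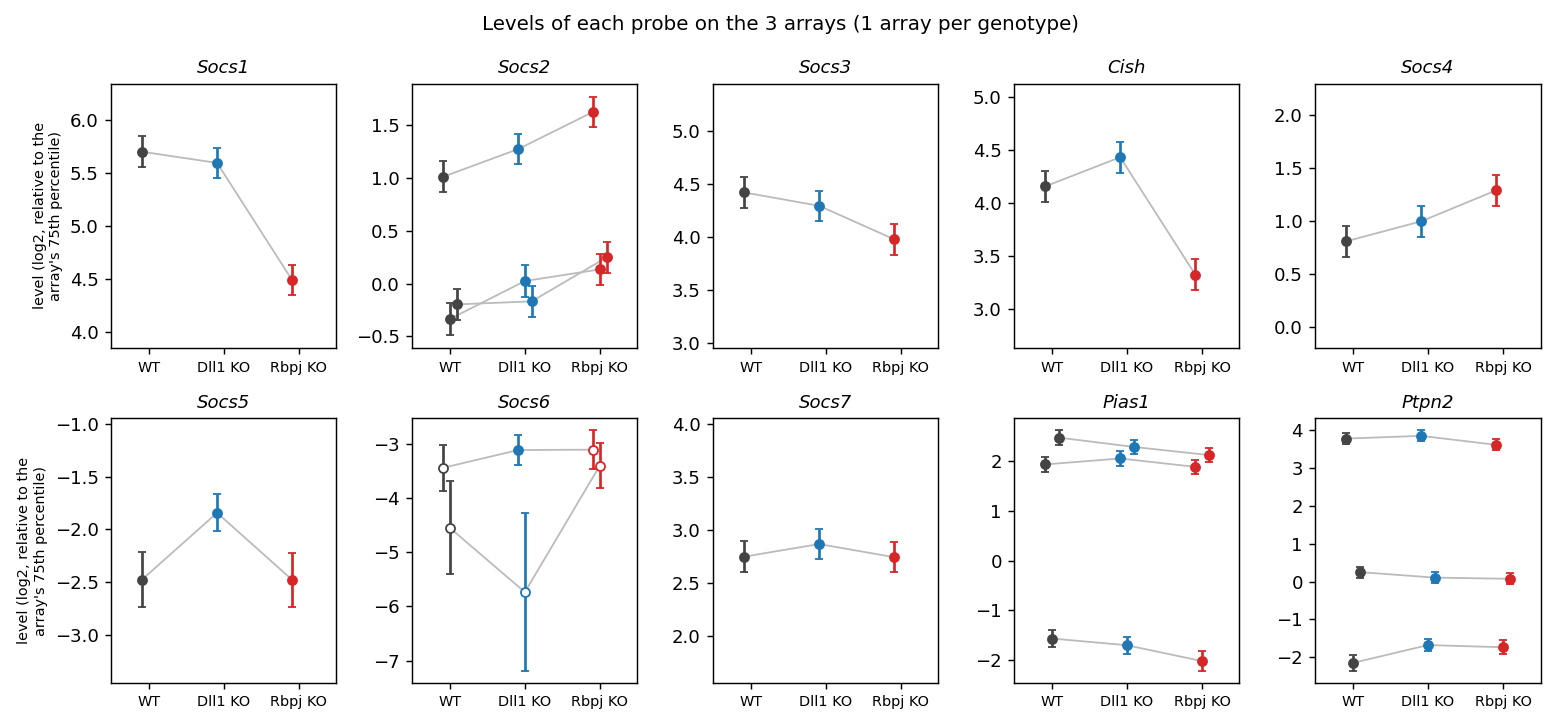
Levels of the 17 probes in WT (grey), Dll1 KO (blue) and Rbpj KO (red), as log2 relative to the array's 75th percentile, with bars for the spot error given by Feature Extraction and open circles for probes not well above background. Socs1 is at 4.49 and Cish at 3.32 in the Rbpj KO, below both other arrays, and the 3 Socs2 probes are highest there, though not under spike-in scaling. Each panel has its own axis, and lines join the values of 1 probe.

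Socs3, the brake on IL-6 family signals, showed a smaller distance in the same order as Socs1. Its levels were 4.42 (WT), 4.30 (Dll1 KO) and 3.98 (Rbpj KO). The Rbpj KO was 1.36-fold lower than WT (-0.44 ± 0.20), 2.17 times the error, and the Dll1 KO was at -0.13 ± 0.20, within it. Its probe lies in row 14, among the low-numbered rows, where more probes stood apart.

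Socs2, a STAT5-induced inhibitor best known for restraining growth hormone signals, went the other way. Its 3 probes were all highest in the Rbpj KO on the 75th percentile scale. The probe printed once in row 7 stood at -0.34 (WT), 0.02 (Dll1 KO) and 0.13 (Rbpj KO), and that in row 257 at -0.20, -0.17 and 0.25. By the mean of the probes the Rbpj KO was 1.42-fold higher than WT (0.51 ± 0.12) and the Dll1 KO was at 0.22 ± 0.12, and under spike-in scaling these were -0.08 and 0.05. The single probes gave 0.61, 0.47 and 0.44 for Rbpj KO minus WT. For Dll1 KO minus WT they gave 0.26, 0.36 and 0.03. Between the knockouts the mean was 0.29 ± 0.12, or -0.13 under spike-in scaling.

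One Socs2 probe is printed 10 times on each array, which shows the spot error directly. Its 10 spots ran from 0.94 to 1.09 in WT with a median of 1.01, from 1.20 to 1.33 in the Dll1 KO with a median of 1.27, and from 1.51 to 1.71 in the Rbpj KO with a median of 1.63. The spots of the 3 arrays did not overlap, with SDs of 0.06, 0.05 and 0.06, although spots of 1 array are not replicates of a genotype. The 2 spots in low-numbered rows averaged 1.01, 1.22 and 1.67 on the 3 arrays, and the 8 in high-numbered rows averaged 1.01, 1.28 and 1.61. Both parts of the array therefore gave the same order on that scale.

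**Figure D2:**
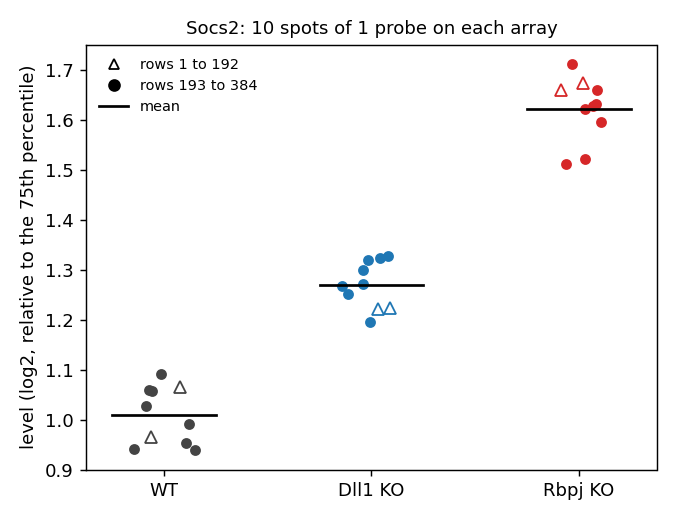
Levels of the 10 spots of 1 Socs2 probe on each array (log2 relative to the 75th percentile), with triangles for low-numbered rows, circles for high-numbered rows and a line for the mean. The WT spots end at 1.09, the Dll1 KO spots lie between 1.20 and 1.33, and the Rbpj KO spots start at 1.51. Under spike-in scaling the Rbpj KO mean over the Socs2 probes was 0.08 below WT.

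The less studied members Socs4 to Socs7 act mainly on growth factor and insulin receptors. Socs4 stood at 0.81 (WT), 1.00 (Dll1 KO) and 1.29 (Rbpj KO), which was the order of Socs2. The Rbpj KO was 1.40-fold higher than WT (0.48 ± 0.21), or at -0.11 under spike-in scaling, and the Dll1 KO was at 0.19 ± 0.21. Socs4 was measured in row 203.

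Socs5, a member linked to EGF receptor and IL-4 receptor signals, was highest in the Dll1 KO. Its levels were -2.47 (WT), -1.84 (Dll1 KO) and -2.48 (Rbpj KO), so the last was level with WT. The Dll1 KO was 1.55-fold higher than WT (0.63 ± 0.31) while the Rbpj KO differed from WT by less than 0.01, with an error of 0.36, or by -0.59 under spike-in scaling. This probe is dim and lies in row 146, among the low-numbered rows, where more probes stood apart. After normexp with quantile normalization the Dll1 KO difference was 0.27. Socs7 differed little, with levels of 2.75 (WT), 2.87 (Dll1 KO) and 2.75 (Rbpj KO), all within the error of a difference (0.20), though Rbpj KO minus WT was -0.59 under spike-in scaling.

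Socs6 could not be compared. One probe was above background in the Dll1 KO alone. Its Dll1 KO minus WT difference was 0.33, within the error of 0.51, so it gave neither a direction nor a size. The other Socs6 probe failed the background criterion on every array.

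The inhibitors outside the SOCS family were within 0.28 of WT in both knockouts on the 75th percentile scale. Pias1, by 3 probes in rows 29 to 159, was at -0.07 ± 0.13 (Dll1 KO) and -0.28 ± 0.13 (Rbpj KO). Its probes stood at 1.93, -1.56 and 2.47 in WT, at 2.05, -1.70 and 2.28 in the Dll1 KO, and at 1.88, -2.02 and 2.12 in the Rbpj KO. These gave -0.05, -0.45 and -0.35 for Rbpj KO minus WT, all below 0. Ptpn2, by 3 probes in rows 243 to 359, was at 0.13 ± 0.13 (Dll1 KO) and 0.02 ± 0.13 (Rbpj KO), with probes that pointed both ways (-0.17, 0.41 and -0.18 in the Rbpj KO). Its probes stood at 3.78, -2.15 and 0.25 in WT, at 3.85, -1.68 and 0.10 in the Dll1 KO, and at 3.61, -1.74 and 0.07 in the Rbpj KO. Under spike-in scaling Ptpn2 was at -0.04 and -0.56.

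**Figure D3:**
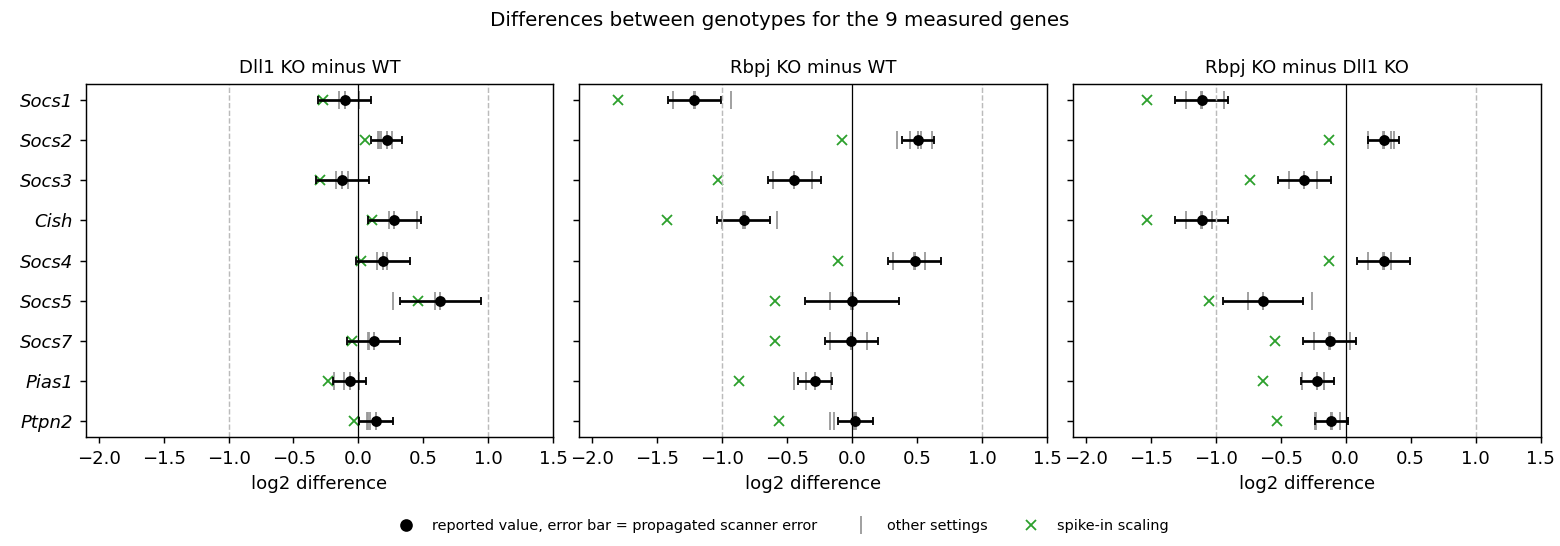
Log2 differences of the 9 measured genes in the 3 comparisons, with black points and bars for the reported value and its spot error, grey ticks for the other processing settings and green crosses for spike-in scaling; dashed lines mark 2-fold. Socs1 and Cish stay below 0 under every setting in both comparisons with the Rbpj KO, while Socs2 and Socs4 cross to below 0 under spike-in scaling.

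As a set, 0 of 9 genes were at least 2-fold apart between Dll1 KO and WT, where 1.12% of 11811 genes were. Between Rbpj KO and WT 1 of 9 was at least 2-fold lower (Socs1) and 0 were higher, where 2.15% of all genes were lower and 1.38% higher. Between the knockouts 2 of 9 (Socs1 and Cish) were lower by at least 2-fold on the Rbpj KO array and 0 were higher, where 2.61% of 11794 genes were lower and 1.55% higher. At 1.5-fold the counts were 1 higher in Dll1 KO minus WT (Socs5, background 1.95%), 2 lower in Rbpj KO minus WT (Socs1 and Cish, background 6.91%) and 3 lower between the knockouts (these 2 and Socs5, background 6.34%). The median of the 9 was 0.13 in the Dll1 KO, where 6 were above WT (4 under spike-in scaling), and -0.0049 in the Rbpj KO, where 3 were above and 6 below (0 and 9 under spike-in scaling). Among all genes the share below WT was 55.7% (Dll1 KO) and 60.2% (Rbpj KO).

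**Figure D4:**
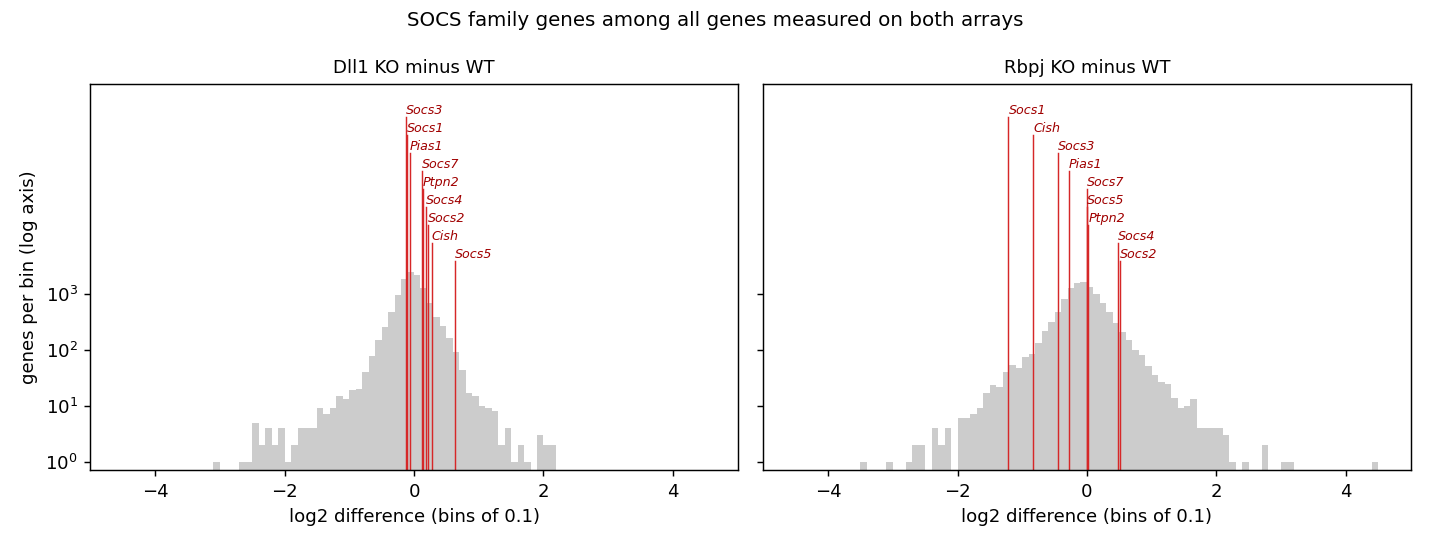
Number of genes per 0.1 log2 of difference, on a log axis, for Dll1 KO minus WT (11811 genes) and Rbpj KO minus WT (11578 genes), with red lines at the 9 SOCS family and related genes, whose heights carry no value. In the Dll1 KO the 9 lie between -0.13 and 0.63, and in the Rbpj KO they spread from Socs1 at -1.21 to Socs2 at 0.51, which is at -0.08 under spike-in scaling.

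By the naming rule Socs1 was the only member at least 2-fold from WT, and its nearest genes were sought among 11019 genes by the Euclidean distance of the 2 differences from WT. Sft2d2 (-0.13 for Dll1 KO and -1.20 for Rbpj KO, distance 0.03), Plac8 (-0.14 and -1.20, distance 0.04) and Fchsd2 (-0.13 and -1.28, distance 0.07) were closest. The measure rests on 3 arrays.

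The genes of the cytokines whose signals these proteins restrain included larger differences. Of 16 cytokine genes named, 8 were well above background in both Rbpj KO and WT, and of these 5 were at least 2-fold lower and 0 higher, where 2.15% of all genes were lower and 1.38% higher. Their median was -1.20, but -0.82 after normexp with quantile normalization, -0.76 over all 16 with no filter on dim probes and -1.79 under spike-in scaling. Il4, the Th2 cytokine that signals through STAT6, stood at 2.04 (WT), 2.29 (Dll1 KO) and -0.60 (Rbpj KO), 6.23-fold below WT. Ifng, the Th1 cytokine, an inducer of Socs1, was at 3.85, 3.96 and 2.56. Il2, which drives STAT5 and thereby Cish, was at 1.45, 1.87 and 0.26, and was added to the named genes after its value was seen. Lif was 2.32-fold and Csf2 2.42-fold lower in the Rbpj KO. All 5 were lowest in the Rbpj KO and, as for Cish, highest in the Dll1 KO. In the Dll1 KO 10 of 12 cytokine genes were above WT, where 44.3% of all genes were. Their median was 0.38, or 0.21 under spike-in scaling, 0.25 after normexp with quantile normalization and 0.27 over all 16 without the filter. The largest were Il21 at 0.85, from a dim probe (-1.94 in WT), and Csf2 at 0.67. At least 2-fold apart were 0, where 1.12% of all genes were.

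Receptor chains were mixed. Of 20 measured, 11 were above and 9 below WT in the Rbpj KO. At least 2-fold apart were 0, where 2.15% of all genes were lower and 1.38% higher. The median was 0.06, but -0.52 under spike-in scaling, -0.10 under median scaling or in the high-numbered rows alone, and -0.02 with the brightest probe of each gene or with probes well above background on all arrays. Il4ra, the IL-4 receptor chain, was at -0.91 and Il12rb1, shared by the IL-12 and IL-23 receptors, at -0.85. Between the knockouts Il12rb1 was 2.07-fold lower on the Rbpj KO array. In the Dll1 KO the largest differences from WT were Il9r at -0.47 and Csf2rb at -0.40, both from dim probes, and the median of the 20 was -0.04.

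The JAK and STAT genes themselves were closer together. None of the 11 was 2-fold apart in any comparison. Among all genes 1.12% were in Dll1 KO minus WT. In Rbpj KO minus WT 2.15% were lower and 1.38% higher, and between the knockouts 2.61% and 1.55%. At such shares 0 of 11 does not set the list apart. In the Rbpj KO 8 of 11 were below WT, where 60.2% of all genes were. Their median was -0.15, or -0.73 under spike-in scaling. Stat2, a factor of type I interferon signalling, was at -0.80, and Stat5a, which carries IL-2 signals to Cish and Socs2, at -0.73. In the Dll1 KO Tyk2, a kinase of the interferon and IL-12 receptors, was at -0.40, and Jak3, the kinase of the common gamma chain, at -0.16.

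Other inhibitors and the ligase partners of the SOCS box lay close to WT. Of 10 other inhibitors 8 were below WT in the Rbpj KO, where 60.2% of all genes were. None was 2-fold apart there, where 2.15% of all genes were lower and 1.38% higher. Their median was -0.09, but -0.68 under spike-in scaling and 0.01 after normexp with quantile normalization. Usp18, an interferon-induced brake on the type I interferon receptor, was at -0.82 and Pias4 at -0.31. In the Dll1 KO the ubiquitin ligase gene Cblb was at 0.48 and Pias4 at -0.38. Of 6 SOCS box partners 5 were below WT in each knockout, where 55.7% (Dll1 KO) and 60.2% (Rbpj KO) of all genes were. Their medians were -0.11 and -0.19, or -0.28 and -0.78 under spike-in scaling. No partner was 2-fold apart from WT, where few of all genes were (1.12% in the Dll1 KO, and 2.15% lower and 1.38% higher in the Rbpj KO). The NEDD8-conjugating enzyme gene Ube2m (-0.34 and -0.49) led both. Next came Elob, an elongin of the ligase, at -0.26 in the Rbpj KO. In the Dll1 KO it was Rnf7, the RING protein of the cullin ligase, at -0.18.

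**Figure D5:**
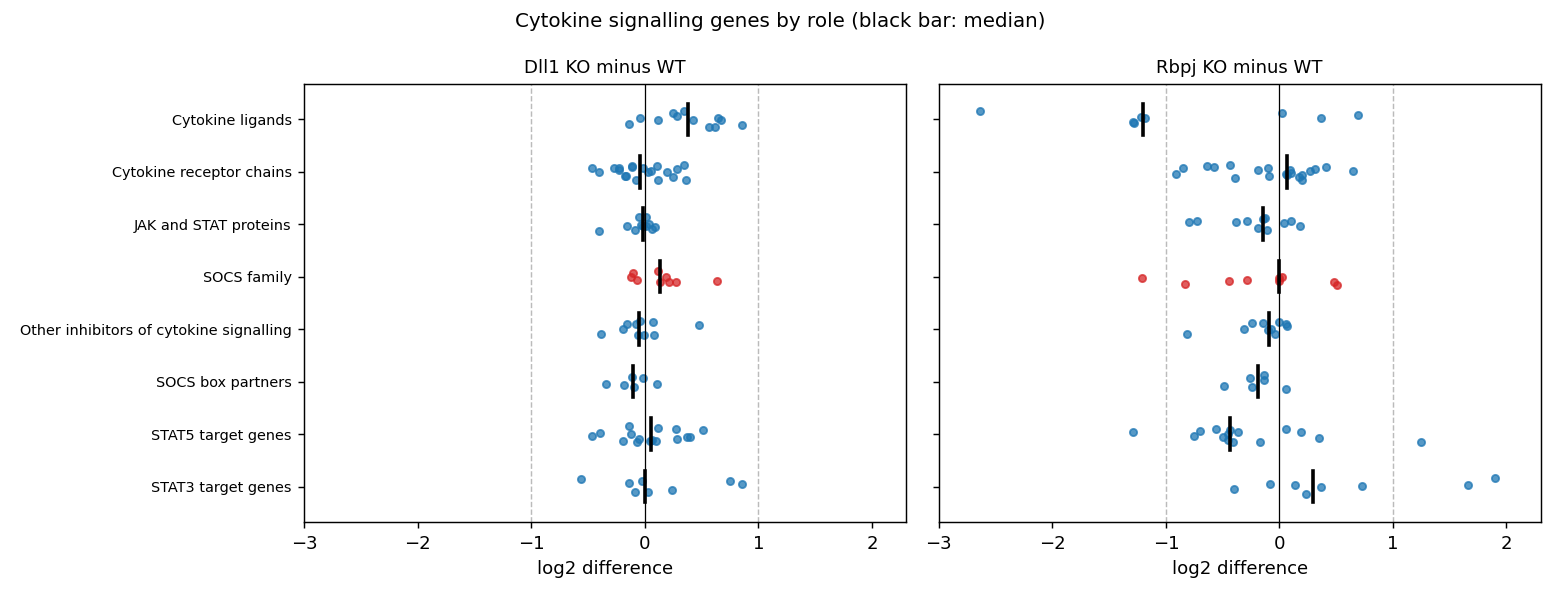
Log2 differences from WT of cytokine signalling genes grouped by role (points: genes; black bars: medians; dashed lines: 2-fold), with the SOCS family and related inhibitors in red. Ligands have the lowest median in the Rbpj KO (-1.20), the SOCS family spans both sides of 0, and spike-in scaling would move all points by -0.17 (Dll1 KO) or -0.59 (Rbpj KO).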

How the data were processed

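The data were 3 one-colour arrays on 1 slide with 1 scan time, per the file headers, made from 20 ng of RNA each, per the labels. The authors deposited processed signal intensity from Feature Extraction (10.7 per the submitters' processing notes, 10.7.1.1 per the file headers), background-subtracted and detrended, with spot and background medians and a spot error. Their deposited value table holds log2 values, with scale and centring not given in the sources used here. In 100% of probes it equals, within 0.01, log2 of the scanner signal shifted by a constant (-7.47 WT, -7.27 Dll1 KO, -7.14 Rbpj KO), with column medians of -3.44, -3.40 and -3.28. These constants nearly match the 75th percentiles subtracted here (7.47, 7.28 and 7.14), so the value table is almost the main scaling.

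Controls and outlier spots (139 to 163 per array) were left out, and 0 spots were saturated. Spots of a probe were averaged (55678 probes). Levels are log2 minus the 75th percentile. RefSeq accessions of GRCm38.p6 named 27507 probes (49.4%), and the array design used mm9, so no probe coordinates are given. A gene's value averages those of its probes that pass background on 1 array or more (13161 genes), and differences need a probe above background on both arrays. Probes seen repeatedly had a median spot SD of 0.06 to 0.07.

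Called means at least 2-fold apart. The members, lists and settings were chosen with earlier results of these data known. Named were all members, and from each list up to 4 genes past 2-fold, largest first, or failing that the 2 largest differences; some items are not reported here. The planned normexp setting (limma 3.58.1, R 4.3.3, offset 50) used spot medians in place of means. The steps were tested on simulated data. Other settings were array median and E1A spike-in scaling, the value table, the filter on dim probes, the brightest probe and the high-numbered rows alone. Other work used Python 3.11.15.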

Additional observations from a re-analysis of the deposited data

How the results depend on the processing

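Over 8 other settings the count of SOCS family members at least 2-fold apart in Dll1 KO minus WT was 0 throughout. For Rbpj KO minus WT it was 1, but 3 under spike-in scaling and 0 after normexp with quantile normalization. Between the knockouts it was 2, but 1 after normexp with quantile normalization, and 3 with no filter on dim probes or with spike-in scaling. Under spike-in scaling the medians were -0.59 for Rbpj KO minus WT and -0.63 between the knockouts, and that for Dll1 KO minus WT turned to -0.04. This scaling moves all genes of an array alike: in the Rbpj KO 1476 genes were then at least 2-fold lower than WT and 40 higher, against 249 and 160, while median scaling gave 380 and 106 and normexp with quantile normalization 70 and 41. That last setting gave 5 and 6 for Dll1 KO minus WT, against 88 and 44, and 139 and 54 between the knockouts, against 308 and 183, where spike-in scaling gave 751 and 65. Socs1 ran from -1.80 to -0.93 and Cish from -1.42 to -0.58 for Rbpj KO minus WT. With the high-numbered rows alone 5 members were left, with 1 and 2 of them 2-fold apart in the comparisons with the Rbpj KO. Of the single-gene values and other list medians, 51 moved by more than the spread used (0.26 for medians) and 345 did not. Many of the 345 could not move. The value table is the same signal shifted by a constant per array, and settings that choose among probes leave the 6 members with 1 probe unchanged. The 345 are thus no measure of stability. The cause of these shifts was not tested. No paired analysis was possible because each genotype has 1 array. The number of arrays limits the precision.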

Other observations

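Genes listed as targets of STAT factors that SOCS proteins restrain lay on both sides of WT in the Rbpj KO. Of 15 STAT5 target genes 11 lay under WT, as did 60.2% of all genes, and the median was -0.44 where that of all genes was -0.07. It was -1.03 under spike-in scaling and -0.27 after normexp with quantile normalization. Among these targets the survival gene Bcl2 was 2.45-fold lower and Foxp3, the lineage factor of regulatory T cells, 2.37-fold higher. Spike-in scaling takes Foxp3, at a log2 difference of 1.25, below 2-fold. Of 8 STAT3 target genes 6 lay over WT, as did 39.8% of all genes, and the median was 0.30, or -0.29 under spike-in scaling. The Th17 cytokine gene Il17a was 3.74-fold higher. Its WT level of -2.61 is dim, as the lowest WT level well above background was -3.21.

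In the Dll1 KO none of these genes was 2-fold apart from WT, where 1.12% of all genes were. The STAT5 targets were centred on 0.05, or -0.12 under spike-in scaling, with the cytotoxic protease Gzmb at 0.51 and the kinase Pim3 at -0.46. The STAT3 targets were split 4 to 4 around WT, with Il21, a dim probe, at 0.85. Il21 is also in the cytokine list, so these lists are not independent.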
